A study of Homo sapiens with 6 samples.

Results

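The retinoblastoma (RB) and E2F families were described here by 10 genes of the 63677 in the count table, namely RB1, RBL1 and RBL2, which encode the pocket proteins, and E2F1, E2F2, E2F3, E2F4, E2F5, E2F7 and E2F8, which encode E2F transcription factors. They were taken by gene symbol and not by a threshold on their values, with earlier results of these data known. T24 cells, an established line from a high-grade human bladder carcinoma, were transfected with a pair of siRNAs against RBM3 (siRBM3, n = 3) or with a non-targeting negative control siRNA (control, n = 3). Both groups received Lipofectamine and 25 nM siRNA in serum-free medium for 4.5 h and recovered overnight in full medium. Polyadenylated RNA was sequenced, and the 6 libraries held between 23603992 and 45098612 counts, the deepest being siRBM3 replicate 3. The replicates carry the numbers 1, 3 and 5 in control and 3, 4 and 5 in siRBM3. Neither labels nor methods state that the 6 samples came from separate cultures, so the p-values measure the spread between these samples, which may be technical.

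Pocket proteins bind E2F factors and, while unphosphorylated, hold back the transcription of genes for S-phase. Cyclin D with CDK4 or CDK6 and cyclin E with CDK2 phosphorylate them in G1, upon which E2F is released and genes for DNA replication and nucleotide synthesis are transcribed. E2F1, E2F2 and E2F3 are known mainly as activators, E2F4 and E2F5 mainly as repressors that work with RBL1 (p107) and RBL2 (p130), and E2F7 and E2F8 as atypical repressors that bind DNA without a DP partner. The RB pathway is often altered in invasive bladder carcinoma. The study examined how silencing of RBM3 acts on the step from G1 to S-phase, and the genes below stand directly upstream of that step.

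The silencing itself was examined first. RBM3, an RNA-binding protein gene, had 298 ± 71.3 counts per 1000000 library counts (CPM, mean ± SD, n = 3) in control and 67.5 ± 19.6 CPM in siRBM3 libraries, and the groups did not overlap. All 5 epithelial markers examined (KRT7, KRT8, KRT18, KRT19 and EPCAM) were above 1 CPM. Of 7 markers of urothelial differentiation, UPK1A, UPK1B, UPK3A and KRT20 were below 1 CPM, as were all 4 leukocyte markers, both basal keratins KRT5 and KRT14 and the fibroblast marker DCN. The remaining urothelial markers PPARG, GATA3 and UPK2 had control means of 143, 10.75 and 1.42 CPM. Of the other basal, endothelial and fibroblast markers, CD44, CDH5, COL1A1 and COL1A2 had a mean above 1 CPM in control, and VWF did not. The summed level of the epithelial markers was 5065 to 5869 CPM in control and 4206 to 4305 CPM in siRBM3 libraries, and its part in the members' values was not tested.

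Several E2F genes are themselves E2F targets, and the sequence before the start of transcription was therefore read for members whose levels are compared below. The windows come from RefSeq on GRCh38.p14, a build other than that of the counts, and 8 of the 10 members had at least 1 window, of 250 bases before and 50 after a start. The 4 words of 8 bases TTTCCCGC, TTTCGCGC, TTTGCCGC and TTTGGCGC, spellings of the E2F site, were searched on both strands. At least 1 of them was present in 3.31% of the 35116 windows in the table. Among the members they were present before the start of E2F1, RBL1, E2F2 and E2F3. The 120 bases before the start are given for these and, as a window without such a word, for E2F4. Capitals mark the words, and each sequence reads 5′ to 3′ on the strand of its gene.
E2F1, chr20:33686386-33686505, minus strand: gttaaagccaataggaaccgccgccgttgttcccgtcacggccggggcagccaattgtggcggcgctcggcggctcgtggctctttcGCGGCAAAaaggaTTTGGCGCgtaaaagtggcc
RBL1, chr20:37095998-37096117, minus strand: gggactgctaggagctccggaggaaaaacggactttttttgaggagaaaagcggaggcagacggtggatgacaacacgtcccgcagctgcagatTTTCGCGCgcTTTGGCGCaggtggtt
E2F2, chr1:23531234-23531353, minus strand: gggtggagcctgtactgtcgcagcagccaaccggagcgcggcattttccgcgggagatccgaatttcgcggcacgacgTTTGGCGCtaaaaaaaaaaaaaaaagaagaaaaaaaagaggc
E2F3, chr6:20401759-20401878, plus strand: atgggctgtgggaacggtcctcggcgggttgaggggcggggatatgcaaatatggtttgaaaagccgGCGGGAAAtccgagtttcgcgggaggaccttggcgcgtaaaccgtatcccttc
E2F4, chr16:67192035-67192154, plus strand: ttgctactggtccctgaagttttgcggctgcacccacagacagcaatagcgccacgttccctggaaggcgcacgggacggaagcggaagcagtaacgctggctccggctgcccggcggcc

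E2F1 and RBL1 each held a pair of words within the last 33 bases before the start, and both shared TTTGGCGC, beginning at position -20 in E2F1 and -16 in RBL1. E2F2 held the same word at position -42. The first word of E2F1 and the word of E2F3 lay on the other strand, where the printed GCGGCAAA reads as TTTGCCGC and GCGGGAAA as TTTCCCGC. The element TTTGAA, searched on both strands, which resembles the CHR site of genes repressed by the DREAM complex, was found in 15.2% of all windows and, among the members, at position -65 of E2F3 and after the start of RBL2. No E2F word was present in the window of E2F7, in either window of RBL2 or at a second start of E2F3. The same held for RB1, whose only window lies around a start 172699 bases downstream of the start of the gene. E2F5 and E2F8 were not searched. A match of letters is a description and not evidence of binding.

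Levels were first compared between the 10 genes within control cells, as CPM per kilobase of exon (RPKM, with the union of the annotated exons as length). E2F4 was highest at 22.1 ± 1.59 RPKM (SD, n = 3), followed by RB1 at 21.7 ± 1.499 and E2F7 at 20.2 ± 7.30 RPKM. RBL2 had 13.3 ± 0.597 and E2F1 10.1 ± 4.80 RPKM. Lower down came E2F3 with 5.66 ± 0.978, RBL1 with 4.45 ± 0.745 and E2F5 with 2.24 ± 0.676 RPKM. E2F8 had 1.43 ± 0.613 and E2F2 0.359 ± 0.279 RPKM. The ranges of the 3 control libraries overlapped between all neighbours in this order except between E2F1 and E2F3, between RBL1 and E2F5 and between E2F8 and E2F2. With the longest transcript as length, RB1, RBL2 and E2F4 moved by more than 1 SD, to 29.3, 17.0 and 30.45 RPKM (means of 3 control libraries). With either length the means of E2F4, RB1 and E2F7 lay above those of the activators E2F1, E2F2 and E2F3.

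**Figure D1:**
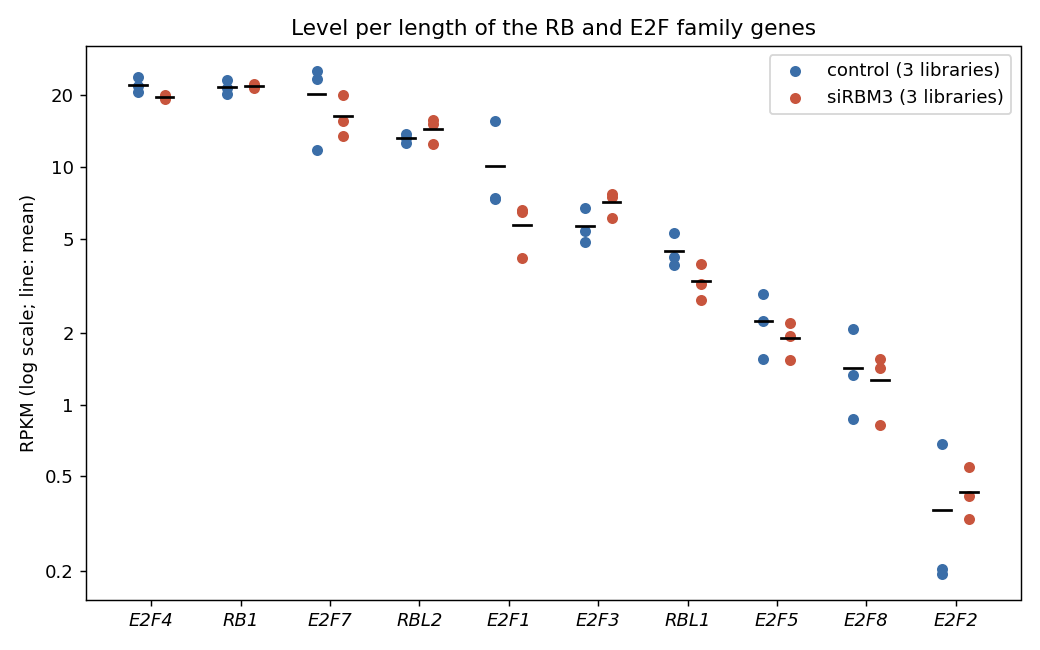
Level per length (RPKM, log axis) of each member in the 3 control and 3 siRBM3 libraries, ordered by the control mean, with a line at each mean. E2F4 and RB1 lie between 20.28 and 23.86 RPKM in control, E2F7 spreads from 11.84 to 25.32 RPKM, and E2F2 lies below 1 RPKM in all 6 libraries.

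Silencing of RBM3 was then examined for each member. In the edgeR quasi-likelihood test, 0 of the 10 genes passed the study's thresholds (fold change of 1.5 and FDR, the Benjamini-Hochberg adjusted p, below 0.01), as did 0% of the 15099 genes tested. DESeq2 called 0 of the 10, against 1.22% of the 13068 genes to which it gave an adjusted p. By limma-voom 0 of the 10 were called, and 0 of the 15099 genes tested. At an unadjusted p under 0.05, edgeR gave 2 members that were lower in siRBM3 cells, E2F1 and RBL1, and 0 that were higher, while 6.58% of all genes tested were lower and 6.56% higher at this level. DESeq2 and limma-voom gave the same 2 members at that level. Over all 10, 6 log2 fold changes were below 0 and the median was -0.18, beside 51.5% and -0.01 over all genes tested. The members' median was -0.12 without control replicate 1 and -0.08 without siRBM3 replicate 3. All 3 siRBM3 libraries lay below all 3 control libraries for 2 of the 10, E2F1 and E2F4, where 9.93% of all genes showed this, and above for 0 of the 10, where 9.98% did. For 1 gene, the exact permutation test (two-sided) of 3 libraries against 3 reaches p = 0.1 at the lowest. Bulk RNA does not tell apart fewer cells in the phase that transcribes a gene and less of its mRNA per cell. Values per library are listed below in the order control replicates 1, 3 and 5 and siRBM3 replicates 3, 4 and 5. No exon base of RB1, E2F1, E2F2, E2F3, E2F4 or E2F7 is shared with another gene.

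**Figure D2:**
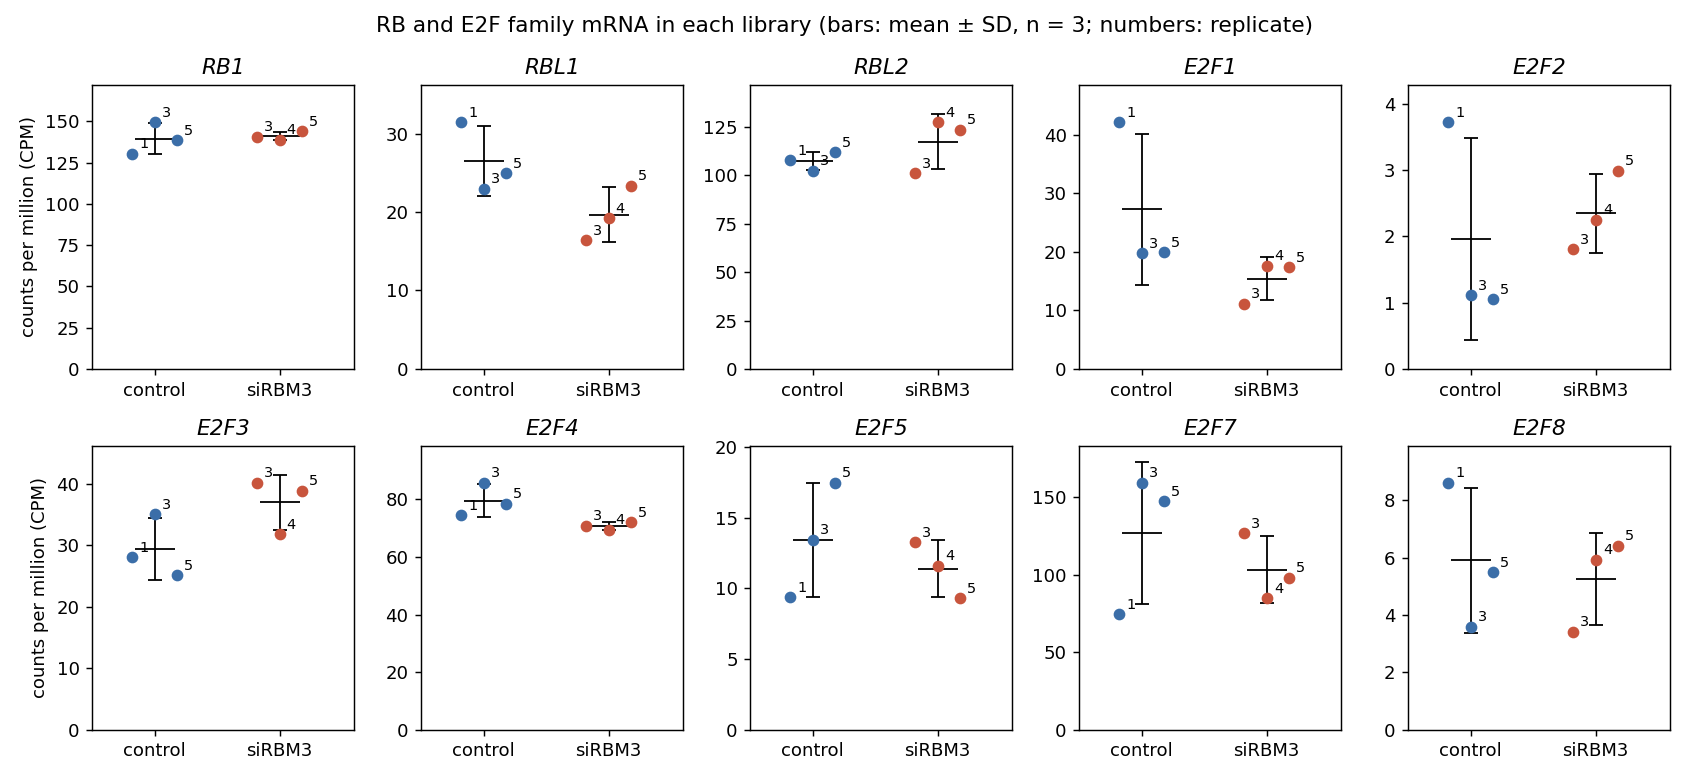
CPM of each member in each library (axes start at 0, numbers give the replicate, bars the mean ± SD of 3 libraries). Control replicate 1 is the highest library for E2F1, RBL1, E2F2 and E2F8 and the lowest for E2F7, while RB1 stays between 130.5 and 149.7 CPM in all 6.

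Of the pocket protein genes, RB1 (ENSG00000139687, GRCh37 chromosome 13, 48877880 to 49173572, plus strand) encodes the tumour suppressor that mainly restrains E2F1 to E2F3. RB1 was measured at 130.5, 149.7 and 139 CPM under control siRNA and at 141, 139 and 144 CPM under siRBM3. All 3 siRBM3 values lay inside the control range. Its log2 fold change was 0.02 (95% confidence interval -0.19 to 0.22), and the sign turned without control replicate 1 (-0.03) and with scaling by library size only (-0.03). RB1 varied least of the 10 between libraries, with a root mean square deviation of log2 CPM of 0.06.

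RBL1 (ENSG00000080839, chromosome 20, 35624752 to 35724400, minus strand) encodes p107, the pocket protein whose own gene is an E2F target. Control libraries held 31.5, 23.0 and 25.0 CPM of RBL1, and siRBM3 libraries 16.4, 19.2 and 23.4 CPM. The groups overlapped by a single pair of libraries, siRBM3 replicate 5 and control replicate 3. A log2 fold change of -0.43 (standard error 0.17, 95% interval -0.83 to -0.03) was obtained, with an unadjusted p of 0.0369 and an FDR of 0.344 in edgeR. The unadjusted p was above 0.05 without control replicate 1 (-0.29, p of 0.120 in edgeR), control replicate 5 (0.0576), siRBM3 replicate 3 (-0.32, 0.119) or siRBM3 replicate 4 (0.0928). By position, 3.58% of the exon bases of RBL1 are shared with another gene.

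RBL2 (ENSG00000103479, chromosome 16, 53467889 to 53525560, plus strand) encodes p130, the pocket protein of resting cells. Control libraries held 108, 102.5 and 112 CPM of RBL2, and siRBM3 libraries 101, 128 and 124 CPM. The groups overlapped through siRBM3 replicate 3, and the log2 fold change was 0.13 (95% interval -0.12 to 0.38, FDR 0.672 in edgeR). It was 0.23 without siRBM3 replicate 3 and 0.07 without siRBM3 replicate 4. AKTIP, on the other strand, shares 7.51% of its exon bases, and no source used here says that strand was used in counting.

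The balance within the pocket protein genes does not depend on the scaling of the libraries. RBL1 made up 13.6%, 9.71% and 10.6% of the summed RPKM of the 3 genes under control siRNA and 7.43%, 7.95% and 9.44% under siRBM3. RB1 held 55.1 ± 3.20% in control and 55.4 ± 3.13% in siRBM3 libraries (SD, n = 3), and RBL2 33.6 ± 1.65% and 36.4 ± 2.61%. The share of RBL1 was thus lower in every siRBM3 library than in every control library, and the shares of RB1 and RBL2 overlapped. The gap was narrow, between 9.71% in control replicate 3 and 9.44% in siRBM3 replicate 5, and in CPM the groups of RBL1 overlapped. Per length, the log2 ratio of RBL1 to RBL2 was -1.59 ± 0.22 in control and -2.14 ± 0.17 in siRBM3 libraries (SD, n = 3), again without overlap. In CPM, 9.93% of all genes tested had every siRBM3 library below every control library, and no such share was computed on these scales. These shares and ratios were examined after the values had been seen and were not tested.

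Among the activators, E2F1 (ENSG00000101412, chromosome 20, 32263283 to 32274191, minus strand) had the log2 fold change farthest from 0 of the 10 members. It encodes an activator that also induces its own gene and genes of apoptosis. E2F1 was found at 42.2, 19.7 and 19.9 CPM under control siRNA, against 11.2, 17.7 and 17.4 CPM under siRBM3. The groups did not overlap, but the gap was narrow apart from control replicate 1 at the top and siRBM3 replicate 3 at the bottom. The mean was 27.3 ± 12.9 CPM in control and 15.4 ± 3.67 CPM in siRBM3 libraries (SD, n = 3). The log2 fold change was -0.83 (standard error 0.33, 95% interval -1.59 to -0.08), with an unadjusted p of 0.0348 and an FDR of 0.336 in edgeR, while DESeq2 gave an FDR of 0.139. Without control replicate 1 it was -0.37, with an unadjusted p of 0.111 in edgeR. Without siRBM3 replicate 3 it was -0.64, with a p above 0.05 as well.

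E2F2 (ENSG00000007968, chromosome 1, 23832930 to 23857725, minus strand), another activator, rested on few reads. Control replicates 1, 3 and 5 held 108, 29 and 28 counts, which is 3.72, 1.11 and 1.05 CPM, and siRBM3 replicates 3, 4 and 5 held 74, 57 and 74 counts, which is 1.80, 2.25 and 2.99 CPM. The siRBM3 libraries lay between control replicate 1 and the other control libraries. Its log2 fold change of 0.24 (95% interval -0.90 to 1.37) became 1.10 without control replicate 1, with an unadjusted p of 0.00759 and an FDR of 0.152 in edgeR. Leaving out control replicate 3 or 5 instead turned the sign, to -0.04 and -0.06.

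E2F3 (ENSG00000112242, chromosome 6, 20402110 to 20493945, plus strand) encodes E2F3a and E2F3b from separate starts, which a count per gene does not separate. Its region is amplified in a part of bladder carcinomas. E2F3 was measured at 28.1, 35.0 and 25.1 CPM under control siRNA and at 40.1, 31.8 and 38.9 CPM under siRBM3. The groups overlapped through control replicate 3 and siRBM3 replicate 4. A log2 fold change of 0.33 (standard error 0.15, 95% interval -0.02 to 0.68) had an unadjusted p of 0.0636 and an FDR of 0.412 in edgeR. When single libraries were dropped it ranged from 0.23 to 0.47, and without control replicate 3 (0.47) or siRBM3 replicate 4 (0.43) the unadjusted p was below 0.05.

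E2F4 (ENSG00000205250, chromosome 16, 67226058 to 67232821, plus strand) is the main repressor E2F of the DREAM complex. Control libraries held 74.55, 85.8 and 78.5 CPM of E2F4, and siRBM3 libraries 70.9, 69.5 and 72.0 CPM. The groups did not overlap, and the siRBM3 libraries were close to each other (mean ± SD of 70.8 ± 1.25 CPM, n = 3). The difference was small, with a log2 fold change of -0.17 (95% interval -0.38 to 0.04, unadjusted p of 0.105, FDR 0.487 in edgeR) and a range of -0.22 to -0.11 when single libraries were dropped.

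E2F5 (ENSG00000133740, chromosome 8, 86089389 to 86129387, plus strand), a repressor that pairs mainly with RBL2, showed 9.38, 13.4 and 17.5 CPM under control siRNA. Under siRBM3 it showed 13.3, 11.6 and 9.28 CPM. The groups overlapped widely. The log2 fold change of -0.23 (95% interval -0.78 to 0.31) was -0.44 without control replicate 1 and -0.0002 without control replicate 5. Genes on the other strand, RBIS among them, cover 18.8% of its exon bases, and their part in the value was not tested.

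The atypical repressor E2F7 (ENSG00000165891, chromosome 12, 77415028 to 77459349, minus strand) was, per length, the most abundant of these genes in control replicates 3 and 5 (25.3 and 23.4 RPKM) with the exon union as length. With the longest transcript as length its control mean of 22.2 RPKM was below those of E2F4 and RB1. Control libraries held 74.5, 159 and 147 CPM of E2F7, and siRBM3 libraries 127, 84.6 and 97.9 CPM. Control replicate 1 was the lowest of all 6 libraries, and the other control libraries were the highest. With all libraries the log2 fold change was -0.30 (95% interval -0.96 to 0.36, unadjusted p of 0.321). Without control replicate 1 it was -0.57, with an unadjusted p of 0.00804 and an FDR of 0.154 in edgeR. It was nearer to 0 without control replicate 3 (-0.10), control replicate 5 (-0.18) or siRBM3 replicate 4 (-0.18).

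E2F8 (ENSG00000129173, chromosome 11, 19245610 to 19263167, minus strand), which encodes the other atypical repressor, showed 8.62, 3.60 and 5.50 CPM under control siRNA. Under siRBM3 it showed 3.41, 5.93 and 6.42 CPM. The ranges overlapped, and the log2 fold change of -0.18 (95% interval -0.99 to 0.63) changed sign on leaving out control replicate 1 (0.19) or siRBM3 replicate 3 (0.06). E2F7 and E2F8 are often described together, but their profiles over the 6 libraries differed, since control replicate 1 was the highest library for E2F8 and the lowest for E2F7.

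**Figure D3:**
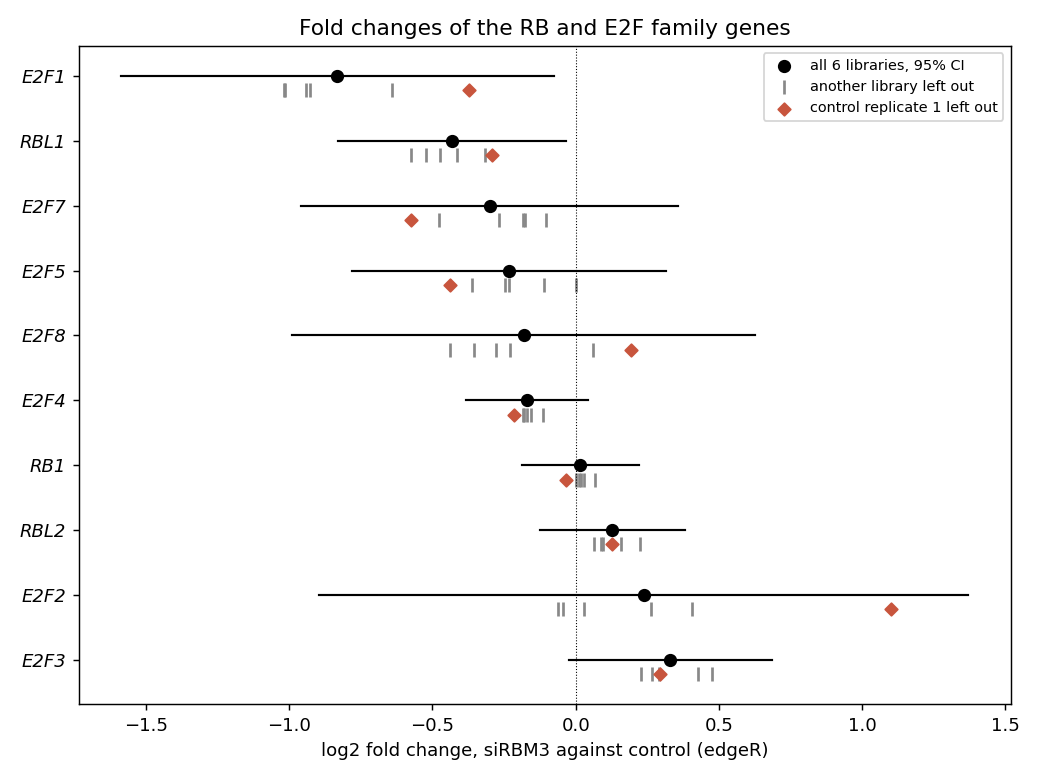
The log2 fold change of each member, siRBM3 against control (point, with the 95% confidence interval of the edgeR fit on 6 libraries), with the value without control replicate 1 (diamond) and without each other library (ticks). The intervals of E2F1 and RBL1 lie below 0 with all libraries, and leaving out control replicate 1 moves E2F1 from -0.83 to -0.37 and E2F2 from 0.24 to 1.10.

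Which members were below an unadjusted p of 0.05 in edgeR depended on single libraries. Without control replicate 1, 1 member was lower (E2F7) and 1 higher (E2F2) at that level, where 8.64% of all genes were lower and 7.44% higher, and E2F1 and RBL1 were not among them. Without siRBM3 replicate 3, 0 of the 10 were below it. E2F1 was below it without control replicate 3, control replicate 5, siRBM3 replicate 4 or siRBM3 replicate 5. Across these 6 fits no member had an FDR below 0.01.

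By mean share, E2F4 and E2F7 were the largest parts of the E2F family, but in control replicate 1 E2F1 (27.0%) was above E2F7 (20.4%). E2F4 made up 35.6 ± 0.316% of the summed RPKM of the 7 E2F genes in control and 37.55 ± 1.73% in siRBM3 libraries, and E2F7 32.1 ± 10.1% and 31.1 ± 4.88% (SD, n = 3). E2F1 made up 27.0%, 11.0% and 12.0% under control siRNA and 7.53%, 13.3% and 12.1% under siRBM3, and on this scale its groups overlapped. The share of E2F3 was 9.32%, 10.1% and 7.81% under control siRNA and 14.0%, 12.4% and 14.1% under siRBM3. On this scale the siRBM3 values of E2F3 all lay above its control values, which held for 1 of the 7 genes. In CPM this held for 9.98% of all genes tested, and no such share was computed on the scale used here. The summed level of the 7 genes was 58.0, 66.6 and 61.9 RPKM under control siRNA and 55.1, 49.25 and 53.2 RPKM under siRBM3, again without overlap. For such a sum, too, no share over all genes was computed. Per length, the log2 ratio of E2F1 to RB1 was -0.37, -1.67 and -1.54 under control siRNA and -2.40, -1.72 and -1.80 under siRBM3. These shares and ratios were read after the values had been seen and were not tested.

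**Figure D4:**
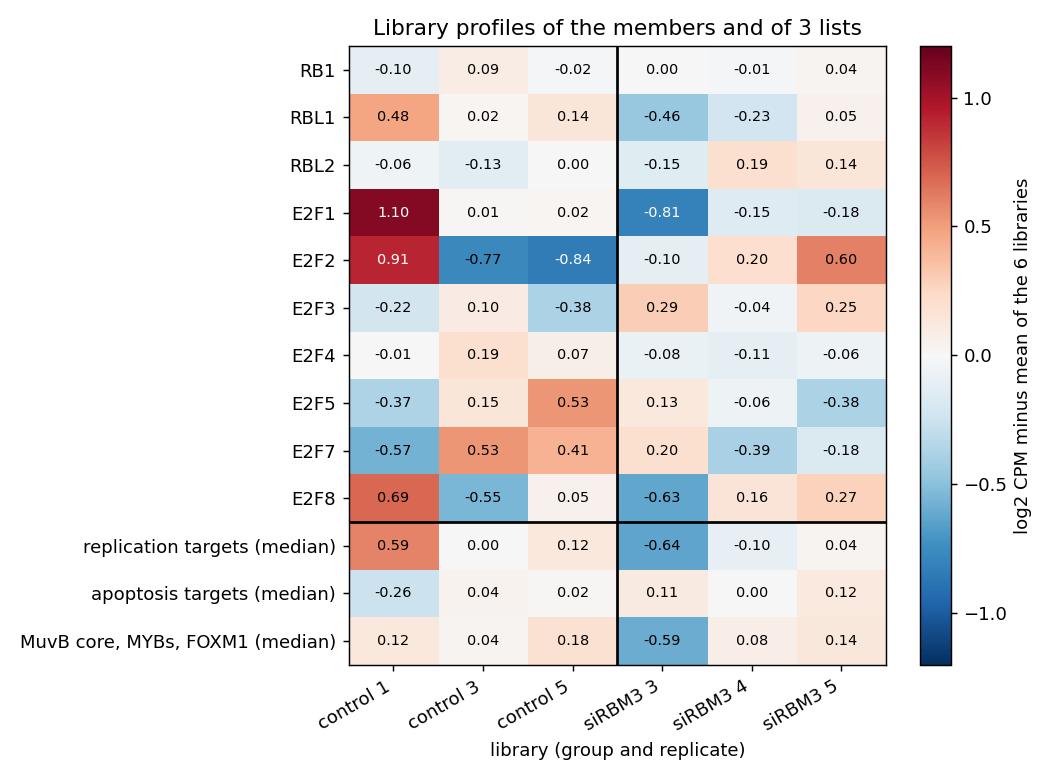
Log2 CPM of each member in each library minus its mean over the 6 libraries (colour and number), with the median of the same quantity over 3 lists of genes below the line. E2F1 and the replication targets are highest in control replicate 1 (1.10 and 0.59) and lowest in siRBM3 replicate 3 (-0.81 and -0.64).

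The targets of E2F were taken from a list of 30 genes for DNA replication, nucleotide synthesis and repair of replicating DNA, of which 29 were matched and 28 tested. Of the 28, 27 had a log2 fold change below 0 and the median was -0.45, beside -0.01 over all genes. At an unadjusted p under 0.05, 10 were lower and 0 higher (6.58% and 6.56% of all genes), and the groups did not overlap for 8, all with siRBM3 below (9.93% of all genes). edgeR called 0 of them at the study's thresholds, limma-voom 0 and DESeq2 1, CDC45. The smallest p belonged to CDC45, a subunit of the replicative helicase, with 38.7 ± 5.46 CPM in control and 22.2 ± 4.99 CPM in siRBM3 libraries (SD, n = 3) and a log2 fold change of -0.80 (FDR 0.157 in edgeR, 0.00966 in DESeq2). CDC6, which loads the helicase onto origins, had a log2 fold change of -0.86, RFC3, a subunit of the clamp loader, -0.60, and MCM3, a subunit of the helicase ring, -0.88. The list's centred log2 level was highest in control replicate 1 (0.59) and lowest in siRBM3 replicate 3 (-0.64), the same libraries that were highest and lowest for E2F1 and RBL1. Without control replicate 1 the median was -0.29, and without siRBM3 replicate 3 it was -0.28. The part of these libraries in the pattern was not tested beyond these values.

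A list of 7 E2F targets of apoptosis, all tested, had a median of -0.06, with 4 genes below 0. BCL2L11, which encodes the BH3-only protein BIM, was the member with an unadjusted p under 0.05. It had 31.4, 25.3 and 30.3 CPM under control siRNA and 48.8, 47.5 and 50.8 CPM under siRBM3, with no overlap. Its log2 fold change was 0.76 (FDR 0.0822 in edgeR, 3.21e-05 in DESeq2, which called it). MIR4435-2HG overlaps 10.8% of its exon bases. APAF1, the core of the apoptosome, also did not overlap between the groups and was higher under siRBM3 (log2 fold change 0.26, FDR 0.398 in edgeR). The groups thus did not overlap for 2 of the 7, both with siRBM3 above, beside 9.98% of all genes. At an unadjusted p under 0.05, 1 of the 7 was higher and 0 lower, beside 6.56% and 6.58% of all genes.

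Of the DP partners and E2F6, a repressor that works without pocket proteins, 3 of 4 were tested and 0 were below an unadjusted p of 0.05, with the smallest p for TFDP2 (log2 fold change 0.16, unadjusted p of 0.237 in edgeR). TFDP1, the main DP partner, had 146 ± 18.1 CPM in control and 135 ± 4.45 CPM in siRBM3 libraries (SD, n = 3), and TFDP3 was not tested for lack of counts. The MuvB core, with which RBL1, RBL2 and E2F4 form the DREAM complex, was listed with its activators MYBL2, MYBL1 and FOXM1. Of these 8 genes 7 were tested and 0 were below an unadjusted p of 0.05, with a median of -0.23 that was -0.10 without siRBM3 replicate 3. The centred log2 level of this list was -0.59 in siRBM3 replicate 3, and 0.08 and 0.14 in siRBM3 replicates 4 and 5. LIN9 had the smallest p (log2 fold change -0.40, unadjusted p of 0.0734 in edgeR). The groups did not overlap for 1 of the 7 with siRBM3 below, LIN9, and for 1 with siRBM3 above, RBBP4 (0.18), beside 9.93% and 9.98% of all genes. LIN37 was listed at 0 in every library, and 54.0% of its exon bases are shared with other genes.

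Corepressors recruited by pocket proteins numbered 15, all tested, and their median was 0.01. At an unadjusted p under 0.05, HDAC3 was lower (log2 fold change -0.33) and HDAC2 (0.27) and SMARCA4 (0.23) were higher in siRBM3 cells, with no overlap for these 3. These counts, 1 lower and 2 higher of 15, are near the shares over all genes, 6.58% and 6.56%. SMARCA2 (log2 fold change 0.10) also did not overlap and was higher. Over the 15, the groups did not overlap for 1 with siRBM3 below and 3 with siRBM3 above, beside 9.93% and 9.98% of all genes. HDAC2 and HDAC3 encode histone deacetylases and SMARCA4 an ATPase of the SWI/SNF complex. Of 5 ubiquitin ligase subunits that act on members, 1, MDM2, was lower at an unadjusted p under 0.05, beside 6.58% of all genes. Its log2 fold change was -0.33 (FDR 0.329 in edgeR), its groups overlapped, and 14.7% of its exon bases are shared with other genes. The list of ligase subunits had a median of -0.17, which turned to 0.07 without siRBM3 replicate 3. None of these genes was called by edgeR or DESeq2.

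Among 16 kinases, cyclins and inhibitors that set the phosphorylation of the pocket proteins, 15 were tested, and at an unadjusted p under 0.05 3 were lower (CDK4, CDK2 and CCND1) and 2 higher (CDKN1B and CCND3), beside 6.58% and 6.56% of all genes. The median was -0.13. CDK4, the kinase that starts the phosphorylation of RB1, had a log2 fold change of -0.61 (FDR 0.0822 in edgeR, 7.13e-05 in DESeq2, which called it), while 44.2% of its exon bases are shared with TSPAN31 on the other strand. CDK2, the kinase of cyclins E and A, had 57.2 ± 15.5 CPM in control and 26.01 ± 11.4 CPM in siRBM3 libraries (SD, n = 3), a log2 fold change of -1.14 with an FDR of 0.263 in edgeR. CCND1, which encodes cyclin D1, had a log2 fold change of -0.39, and CCND3, which encodes cyclin D3, one of 0.90 (FDR 0.279 for each in edgeR). Genes on the other strand also cover 16.8% of the exon bases of CDK2, 10.4% of those of CCND1 and 0.417% of those of CCND3. The part of such overlaps in these values was not tested. CDKN1B, which encodes the CDK inhibitor p27, had 70.9 ± 12.96 CPM in control and 94.4 ± 4.50 CPM in siRBM3 libraries (SD, n = 3, log2 fold change 0.41, FDR 0.259 in edgeR). Over the 15 tested genes, the groups did not overlap for 4 with siRBM3 below and 2 with siRBM3 above, beside 9.93% and 9.98% of all genes. These were the 5 genes named above by their p and CDKN1A (log2 fold change -0.22).

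**Figure D5:**
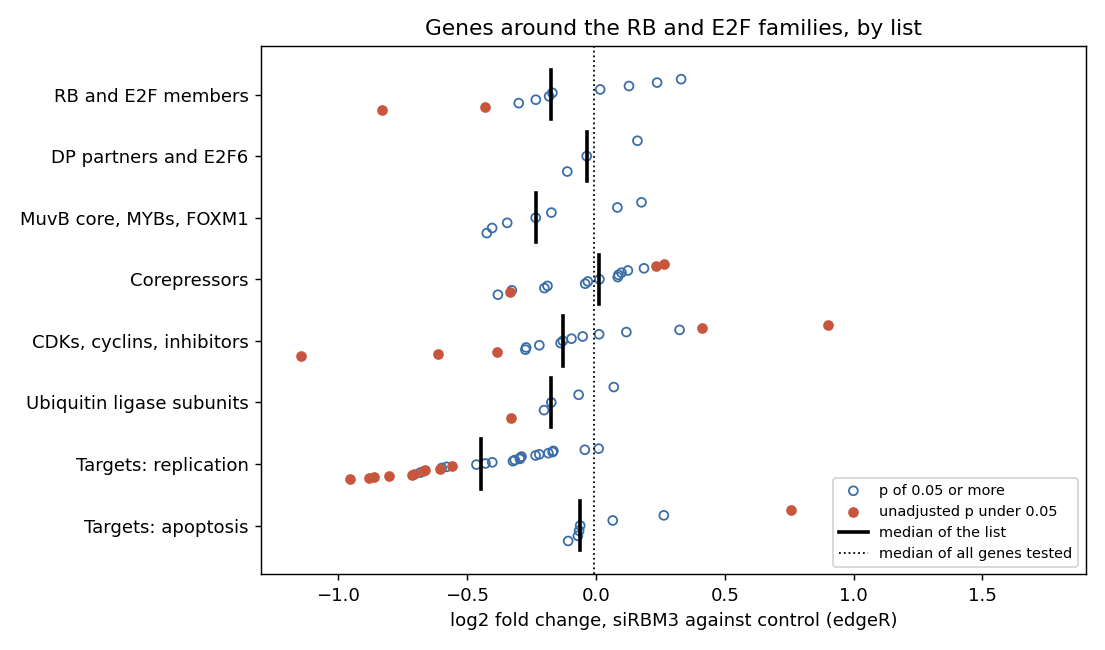
Log2 fold changes of the members and of the tested genes of 7 lists, siRBM3 against control (filled, unadjusted p under 0.05), with the median of each list and, dotted, that of all genes tested. In the replication targets 27 of 28 genes lie below 0 with a median of -0.45, while the members spread from -0.83 to 0.33 with a median of -0.18.

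Genes whose profile over the 6 libraries was nearest to each member were taken from the 14737 other genes that were matched to the annotation and tested, by the root mean square difference of centred log2 CPM. For E2F1 they were CSPG4 (0.08), SEMA6B (0.08) and MCM3 (0.10), where the profile of E2F1 itself had a root mean square of 0.57. For RBL1 they were LINC00842 (0.04), THOP1 (0.04) and PCYT2 (0.06), for E2F3 KRIT1 (0.04), USP6NL (0.06) and DDX3X (0.06), and for E2F4 FAM118B (0.01), VRK2 (0.02) and PSMD8 (0.03). The nearest gene to E2F7 was SLFN5 (0.08), to E2F8 PPP1R3G (0.05), to E2F2 INSIG1 (0.18), to E2F5 CCZ1 (0.08), to RBL2 WDR83 (0.03) and to RB1 YTHDF2 (0.02). With 6 libraries and this many genes, near profiles are found for any gene, and the names are given as a description.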

How the data were processed

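RNA-sequencing libraries of T24 cells were grouped and numbered from the sample titles. The authors trimmed reads with BBDuk, aligned them to hg19/GRCh37 with STAR, flagged duplicates by Picard and summarised reads by gene using featureCounts. Their deposited values are raw counts for 63677 Ensembl identifiers, of which 55665 were matched to symbols and positions in GENCODE (lifted to GRCh37). No source used here gives the annotation release, the strand setting or the handling of duplicates.

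Genes passing filterByExpr of edgeR 4.0.16 (minimum count 10, minimum total 15) were scaled by TMM and fitted with its quasi-likelihood test (siRBM3 against control, robust, Benjamini-Hochberg over 15099 genes), where the study's methods name DESeq2. CPM use the same effective library sizes, and centred log2 CPM a prior count of 2. DESeq2 1.42.0 and limma-voom (limma 3.58.1) in R 4.3.3 were alternatives, as were scaling by RLE or by library size, a mean count of 20 as the filter or none at all, an FDR of 0.05 without a fold threshold, each library left out and the replicate block. Fits were tested on simulated data. Within groups, chi-square per degree of freedom between libraries was 27.6 to 141, so no library was counted as a duplicate. Members and lists were chosen with earlier results of these data known. In each list, members with an unadjusted p under 0.05 were named, at most the 5 with the smallest p, or otherwise the smallest, and for likeness up to 3 nearest genes. Some genes that the rule names are not reported here. LIN37, APAF1, TFDP1, TFDP3, RBBP4, SMARCA2, CDKN1A and the marker genes were named after their values were seen. Promoter windows are those of RefSeq. UHRF1 and PECAM1 were not matched.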

Additional observations from a re-analysis of the deposited data

How the results depend on the processing

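With the study's thresholds, edgeR called 0 genes in all. DESeq2 called 159 (84 higher, 75 lower) of 13068 genes with an adjusted p, which is 1.22%. Without a filter on low counts edgeR called 279 of 30090 genes, and with the replicate number as a block 336 of 15099. In the block fit, control replicate 1 and siRBM3 replicate 4 share their number with no other library. They therefore added nothing to its fold changes, which rested on the remaining libraries only. With each library left out edgeR called 0 to 1 genes, the 1 without control replicate 1. DESeq2 without control replicate 1, an alternative added after seeing the data, called 296 of 12837 genes. Of the 10 RB and E2F members, edgeR without the filter called 1, E2F1 (log2 fold change -0.82, FDR 0.00358), beside 279 of 30090 genes. Under every other alternative run 0 members were called, from 0 to 0 with each library left out. Of the 35 tested E2F targets of both lists, 0 were called by edgeR and 2 by DESeq2 (CDC45 and BCL2L11). With the replicate block 3 of the 35 were called, by DESeq2 without control replicate 1 1, and 0 to 0 with each library left out. Without the filter 36 targets were tested and 6 called. The counts over all genes in the same fits are those given above. RBM3 had a log2 fold change of -2.14 with an FDR of 0.0822 in edgeR. It passed both thresholds with DESeq2 (-2.14), without the filter (-2.13), with the replicate block (-2.57) and by DESeq2 without control replicate 1 (-2.31), and ranged from -2.40 to -1.96 as libraries were left out. In sign, RB1 turned to -0.0294 with library size only, -0.018 with the replicate block and -0.0335 by DESeq2 without control replicate 1, with a range of -0.0327 to 0.0689 when libraries were left out. E2F8 turned to 0.0799 with the replicate block and 0.20 by DESeq2 without control replicate 1, with a range of -0.44 to 0.19 when libraries were left out, and E2F2 ranged from -0.0599 to 1.10. The causes were not tested.

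The 2 groups share the replicate numbers 3 and 5, and nothing in the labels says that a number marks a shared culture or day. Deviations from the group means correlated at 0.53 between the libraries numbered 3 and at 0.09 between those numbered 5. Between libraries of unlike number the correlations ran from -0.36 to 0.20. Whether a shared number marks a shared culture or day was not tested, and the main fit did not use the numbers. With the replicate block, whose fold changes rested on the libraries numbered 3 and 5, the log2 fold change was -0.46 for E2F7 and 1.10 for E2F2. The share of all genes below an unadjusted p of 0.05 was not computed for that fit, so members at that level are not counted. Counts of 28 to 108 limit the precision of E2F2, and the 3 libraries in each group limit all other members.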
